A study of Mus musculus with 6 samples.

Results

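The 10 genes described here make bile acids from cholesterol or move bile acids, phospholipid and sterols across the hepatocyte membrane. They are Cyp7a1, Cyp8b1, Cyp27a1, Cyp7b1, Abcg5, Abcg8, Abcb11, Abcb4, Slc10a1 and Slco1b2. Every probe of the array whose platform annotation carries 1 of these symbols was taken, which gave 14 of 45281 probes. Of these, 13 passed a detection filter that kept 16559 probes of the array, and each of the 10 genes kept at least 1. The series measured liver RNA on Illumina bead arrays, with 3 tunicamycin arrays (Tuni) and 3 vehicle arrays (Ctrl). Tuni mice were C57Bl/6N animals aged 8 weeks that received tunicamycin at 2.5 mg/kg by intraperitoneal injection, and liver was taken 12 hours later. Ctrl mice were of the same strain and age and received an equal volume of vehicle. In both groups the injected fluid was PBS with 100 mM glucose, in which the DMSO stock of tunicamycin was diluted for the Tuni mice. The labels give no genetic change, and the sources used here give neither sex nor chip. The arrays carry a number in their titles but nothing ties them to litters or days. The spread behind each p-value is that between arrays, which may be technical in part.

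Hepatocytes turn cholesterol into bile acids by a classic route, which begins with Cyp7a1, and an alternative route, which begins with Cyp27a1. Bile acids are pumped into the bile canaliculus, together with phosphatidylcholine and cholesterol, by transporters of the ATP-binding cassette family, and return from the blood through uptake carriers on the sinusoidal side. Tunicamycin blocks N-linked glycosylation and so causes endoplasmic reticulum (ER) stress. Most of these genes are written chiefly by hepatocytes, and in whole liver fewer cells of a type and less RNA per cell cannot be told apart.

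Between 15503 and 16603 probes per array had a detection p under 0.05, and median raw signals ran from 88.9 to 96.8. Across probes, r was 0.989 to 0.994 for a pair of arrays within a group and 0.887 to 0.901 for a pair made of a Tuni and a Ctrl array. The ER stress list served as a check of the labels, and all 10 of its genes rose, as did 31.2% of all named genes tested. Ddit3, which encodes the stress factor CHOP, rose 276-fold, Atf3 rose 66.0-fold, Trib3 rose 28.8-fold and Atf4 rose 3.70-fold. Of 15 hepatocyte markers, 10 were tested, of which 7 fell and 0 rose, with a median log2 fold change of -0.68. The largest falls among them were those of Arg1, 4.55-fold, and Ass1, 2.21-fold. Apoa1, which was not called, was bright in both groups at normalized log2 intensities of 14.29 in Tuni and 14.33 in Ctrl livers. Its raw signal was 17028.1 to 19732.9 in Tuni and 21244.3 to 24151.1 in Ctrl livers. Alb and Tf of that list were not tested.

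Of the 10 genes, 9 fell after tunicamycin and 1, Abcb4, rose, at an adjusted p under 0.05 in limma's moderated test. Among all 9332 named genes tested, 33.1% fell and 31.2% rose, so that 64.3% were called. The 3 Tuni arrays lay wholly below or above the 3 Ctrl arrays for all 10 genes, as they did for 68.6% of named genes. In log2 fold change the median was -1.52 over the 10 genes and -0.02 over all named genes. For 8 of the 10 the fitted change was at least 2-fold, 7 lower and 1 higher, against 23.7% of named genes, made up of 12.3% that fell and 11.4% that rose. Slc10a1, which no Tuni array detected, is 1 of these 8 but has only a bound of at least 1.82-fold. With it at that bound, 7 genes changed at least 2-fold, 6 lower and 1 higher, and the median was -1.48. By probe, 12 of the 13 fell and 1 rose, where 29.8% of all probes tested fell, 31.8% rose and 61.5% were called. For all 13 the groups did not overlap, as for 65.7% of all probes tested. The genes were chosen with earlier results of these arrays in view, so these counts describe them and are not a test.

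**Figure D1:**
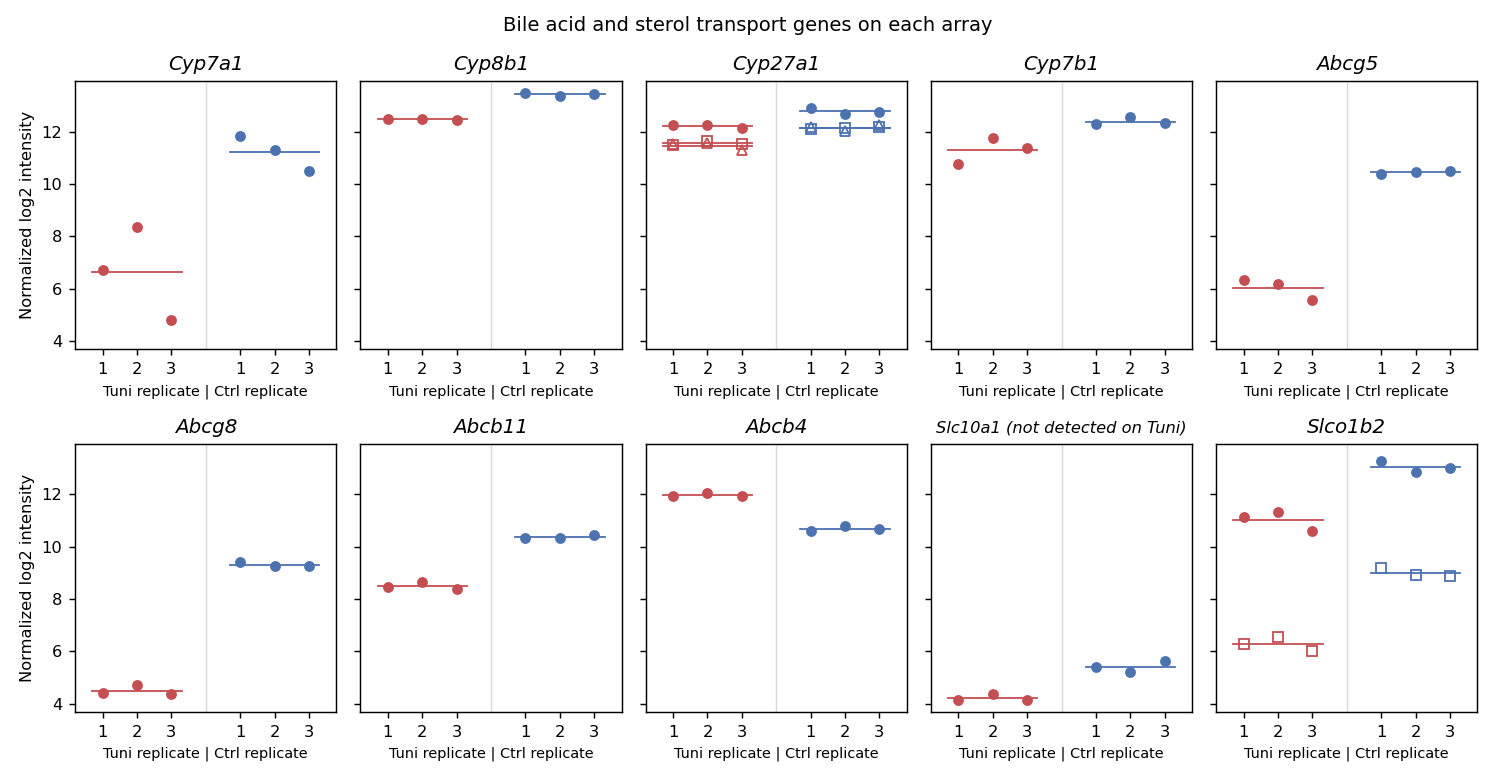
Normalized log2 intensity of each probe that passed the detection filter, on the 3 Tuni arrays (red, left) and the 3 Ctrl arrays (blue, right), with a line at each group mean. Filled circles are the brightest probe of a gene, and open squares and triangles are its other probes. Tuni arrays lie below Ctrl arrays for 9 genes and above them for Abcb4, and Cyp7a1 spreads widely between replicates.

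Cyp7a1, the rate-limiting enzyme of the classic route, was far lower in Tuni livers but varied most between replicates. Its raw signal was 162.8, 416.3 and 109.1 on Tuni arrays 1, 2 and 3, against 3782.3, 2593.9 and 1506.7 on Ctrl arrays 1, 2 and 3. Tuni array 2 was the highest of its group and Tuni array 3 the lowest, which was still detected, at a detection p of 0.00534. After background correction and normalization the log2 intensities were 6.73, 8.38 and 4.83 on the Tuni arrays and 11.85, 11.28 and 10.51 on the Ctrl arrays. The groups did not overlap, and the lowest Ctrl array lay above the highest Tuni array. The fall was 23.8-fold, with a 95% confidence interval of 8.25-fold to 68.4-fold (log2 fold change -4.57 ± 0.69 SE, adjusted p = 0.000182, limma). The 3 Tuni arrays spanned 3.55 log2 units and the 3 Ctrl arrays 1.34. The residual standard deviation of this probe was 1.34, against a median of 0.15 over all probes tested, and 1 of the 16559 probes had a larger one. The moderated fit draws such a spread towards that of all probes. The SE and interval above are therefore narrower than the 6 arrays of this probe alone would give. With limma's trend and robust options the adjusted p was 0.0198. Without Tuni replicate 2 the log2 fold change was -5.44, and without Tuni replicate 3 it was -3.68. Without background correction it was -3.53.

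Cyp8b1, the sterol hydroxylase that steers the classic route towards cholic acid, fell less and with little spread. Its log2 intensity was 12.48, 12.49 and 12.46 on the Tuni arrays, against 13.47, 13.36 and 13.43 on the Ctrl arrays. The Tuni arrays lay within 0.03 log2 units of each other. The fall was 1.92-fold (log2 fold change -0.94 ± 0.10 SE, adjusted p = 1.37e-05, limma). The promoter window of Cyp8b1 is shown because it holds a match to an HNF4A motif, and HNF4A is known as an activator of this gene. It is from RefSeq (GRCm38.p6), chr9:121916256-121916555, minus strand, printed from 250 bases before the start site to 50 bases after it.
Cyp8b1: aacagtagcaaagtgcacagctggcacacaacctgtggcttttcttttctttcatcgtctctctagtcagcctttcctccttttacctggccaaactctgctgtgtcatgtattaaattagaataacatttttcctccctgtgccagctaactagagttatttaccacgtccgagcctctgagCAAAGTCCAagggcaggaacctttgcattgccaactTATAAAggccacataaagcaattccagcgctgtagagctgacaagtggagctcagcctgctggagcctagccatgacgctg
Capitals mark CAAAGTCCA, the HNF4A motif, 67 bases before the start site, and TATAAA, the TATA box motif, 31 bases before it. Of 32851 mouse promoter windows of the same length, 0.475% hold the HNF4A motif and 13.6% the TATA box motif on either strand. The other motifs searched on both strands were CAAGGTCA and CAAGGCCA for NR5A2, AGGTCA as a nuclear receptor core (also the last 6 letters of CAAGGTCA), ATTGCATCA for C/EBP-ATF and TTATGTAA for DBP. They are held by 1.56%, 2.4%, 16.3%, 0.192% and 0.938% of windows, and none of their letters occur in this one. Cyp7a1 and Cyp7b1 have no window among those used, and 8 of the 10 genes do.

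The log2 intensity of Cyp7a1 minus that of Cyp8b1 differed by -3.63 between Tuni and Ctrl livers, which is a 12.4-fold further fall of Cyp7a1. An exact two-sided permutation test over arrays gave p = 0.1 for it, which is the smallest p that 3 against 3 arrays allow (adjusted 0.2 over 4 pairs compared, all chosen after their values were seen).

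Both enzymes of the alternative route fell, by less than Cyp7a1. Cyp27a1, the mitochondrial hydroxylase that oxidizes the sterol side chain, had 3 probes on the array. Its brightest probe read 12.27, 12.24 and 12.13 on the Tuni arrays and 12.90, 12.69 and 12.77 on the Ctrl arrays in log2 intensity. It fell 1.49-fold (log2 fold change -0.57 ± 0.11 SE, adjusted p = 0.000916, limma), and the other probes fell 1.49-fold and 1.61-fold. The 3 probes therefore gave like values, and their groups did not overlap. Cyp7b1, the oxysterol hydroxylase that follows Cyp27a1, read 10.77, 11.75 and 11.39 on the Tuni arrays and 12.28, 12.56 and 12.33 on the Ctrl arrays. Tuni array 1 was the lowest here, not Tuni array 3 as for Cyp7a1. Cyp7b1 fell 2.12-fold, with an interval of 1.54-fold to 2.92-fold (adjusted p = 0.00104, limma). Its log2 fold change of -1.08 was -0.82 without Tuni replicate 1 and -1.31 without Tuni replicate 2. The log2 change of Cyp7b1 minus that of Cyp27a1 was -0.51 (exact permutation p = 0.2, adjusted 0.2), and with a smallest possible p of 0.1 this test cannot show whether their falls differ.

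**Figure D2:**
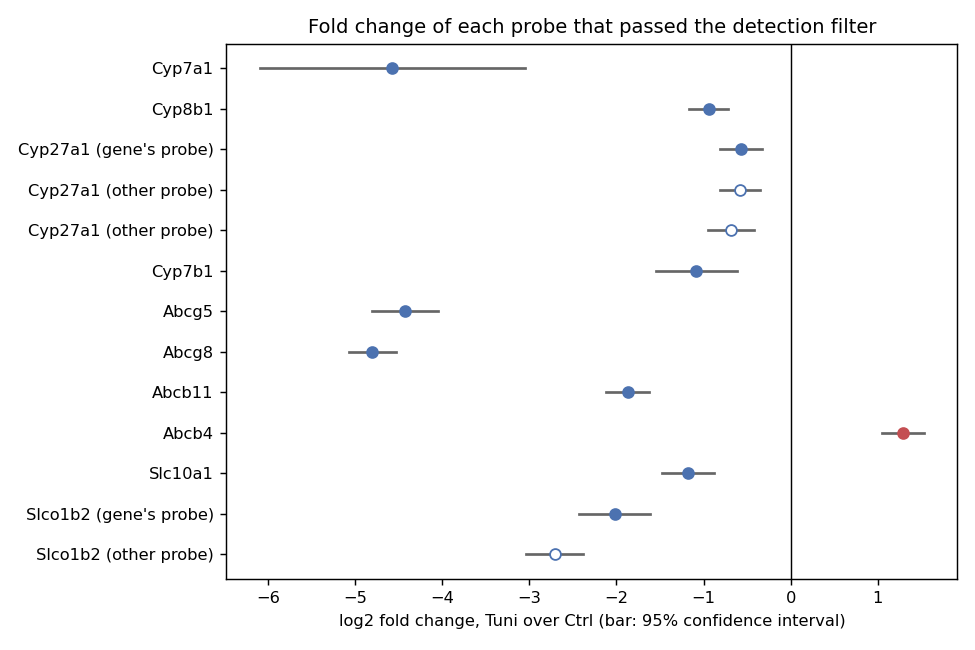
log2 fold change of Tuni over Ctrl for the 13 probes that passed the filter, with 95% confidence intervals of limma's moderated fit as bars. Filled points are the brightest probe of a gene and open points its other probes, blue for falls and red for the rise of Abcb4. Cyp7a1 has the widest interval, from -6.09 to -3.05, and Abcg5 and Abcg8 lie at -4.43 and -4.80 with narrow ones.

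Abcg5 and Abcg8 encode the subunits of the heterodimer that exports cholesterol and plant sterols into bile, and both fell more than 20-fold. Abcg5 read 6.32, 6.17 and 5.58 on the Tuni arrays, against 10.39, 10.44 and 10.52 on the Ctrl arrays in log2 intensity. Its raw signal of 134.6 to 146.1 in Tuni livers was detected on all 3 arrays, beside 1418.5 to 1524.8 in Ctrl livers. The fall was 21.5-fold, with an interval of 16.5-fold to 28.0-fold (log2 fold change -4.43 ± 0.17 SE, adjusted p = 1.14e-08, limma). Abcg8 read 4.41, 4.71 and 4.39 on the Tuni arrays, against 9.41, 9.26 and 9.25 on the Ctrl arrays. In raw signal this was 90.6, 99.8 and 98.6 in Tuni livers, where 1 of 3 arrays, array 2, detected it, and 748.2, 631.8 and 634.3 in Ctrl livers. The fall was 27.9-fold (log2 fold change -4.80 ± 0.12 SE, adjusted p = 1.07e-09, limma), a size that rests on values near background. Without background correction the log2 fold changes were -3.25 for Abcg5 and -2.69 for Abcg8, and with an offset of 50 they were -3.85 and -3.56. The log2 change of Abcg5 minus that of Abcg8 was 0.38 (exact permutation p = 0.2, adjusted 0.2). With a smallest possible p of 0.1, this test cannot show whether their changes differ.

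These genes are transcribed away from each other, and their promoter windows are shown because they overlap and the genes fell together. In RefSeq (GRCm38.p6) the start of Abcg5 lies 110 bases from a start of Abcg8, and the windows share 209 bases. The Abcg5 window is chr17:84682962-84683261, minus strand, and the Abcg8 window chr17:84682871-84683170, plus strand. Each runs from 250 bases before the start to 50 after it.
Abcg5: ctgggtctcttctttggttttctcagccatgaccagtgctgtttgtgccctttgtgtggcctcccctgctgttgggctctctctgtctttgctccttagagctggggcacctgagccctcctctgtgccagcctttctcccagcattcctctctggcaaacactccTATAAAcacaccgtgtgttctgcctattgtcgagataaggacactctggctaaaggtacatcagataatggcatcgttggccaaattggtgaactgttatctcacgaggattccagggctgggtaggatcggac
Abcg8: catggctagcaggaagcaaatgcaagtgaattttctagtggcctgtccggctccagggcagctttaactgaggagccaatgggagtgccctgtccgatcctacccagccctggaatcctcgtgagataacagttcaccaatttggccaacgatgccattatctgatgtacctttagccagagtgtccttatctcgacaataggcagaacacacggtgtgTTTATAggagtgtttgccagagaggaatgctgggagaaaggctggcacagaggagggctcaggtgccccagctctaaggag
Capitals mark the same 6 bases in both, a TATAAA motif on the strand of Abcg5, 84 bases before its start. On the strand of Abcg8 these bases are read in reverse complement and begin 31 bases before its start. None of the other motifs searched occur in these windows. A second RefSeq start of Abcg8, chr17:84676052-84676351, holds no match to any of the motifs.

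The remaining canalicular pumps moved in opposite directions. Abcb11, the bile salt export pump, read 8.46, 8.65 and 8.38 on the Tuni arrays, against 10.35, 10.32 and 10.44 on the Ctrl arrays in log2 intensity. It fell 3.66-fold (log2 fold change -1.87 ± 0.11 SE, adjusted p = 1.92e-07, limma). Abcb4, which flips phosphatidylcholine into bile and so shields the duct lining from bile salts, read 11.94, 12.07 and 11.94 on the Tuni arrays, against 10.61, 10.80 and 10.66 on the Ctrl arrays. It rose 2.45-fold, with an interval of 2.07-fold to 2.89-fold (log2 fold change 1.29 ± 0.11 SE, adjusted p = 2.23e-06, limma). In raw signal Abcb4 read 3242.1, 4340.2 and 4704.0 in Tuni livers, beside 1647.5, 1844.8 and 1704.0 in Ctrl livers. The difference in log2 intensity between Abcb4 and Abcb11 was 3.16 larger in Tuni than in Ctrl livers, which is an 8.95-fold shift in their ratio. The exact permutation test gave the smallest p that the design allows, p = 0.1 (adjusted 0.2).

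The windows of this pair are shown because these genes serve the same membrane and changed in opposite directions. They are Abcb11, chr2:69342567-69342866, minus strand, and Abcb4, chr5:8893471-8893770, plus strand, from RefSeq (GRCm38.p6).
Abcb11: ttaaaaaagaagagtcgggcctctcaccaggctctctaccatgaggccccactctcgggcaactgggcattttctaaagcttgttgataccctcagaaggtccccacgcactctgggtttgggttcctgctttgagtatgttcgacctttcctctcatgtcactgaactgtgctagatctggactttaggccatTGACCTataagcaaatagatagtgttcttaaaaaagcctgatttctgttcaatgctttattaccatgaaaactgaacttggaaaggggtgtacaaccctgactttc
Abcb4: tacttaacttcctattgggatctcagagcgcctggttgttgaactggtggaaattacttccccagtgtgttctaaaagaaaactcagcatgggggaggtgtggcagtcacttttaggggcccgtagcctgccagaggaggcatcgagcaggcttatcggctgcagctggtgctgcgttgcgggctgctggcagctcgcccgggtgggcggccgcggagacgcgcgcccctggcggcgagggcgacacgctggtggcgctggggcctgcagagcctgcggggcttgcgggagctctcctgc
Capitals in Abcb11 mark AGGTCA in reverse complement, 56 bases before the start site. AGGTCA is held by 16.3% of all windows. The Abcb4 window holds none of the motifs searched and has therefore no capitals, and neither does that of Cyp27a1, which fell. The part of these motifs in the changes was not tested.

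Uptake carriers of the sinusoidal membrane were lower. Slco1b2, an organic anion carrier that takes up unconjugated bile acids, had 3 probes. The brightest read 11.15, 11.33 and 10.60 on the Tuni arrays, against 13.27, 12.87 and 13.01 on the Ctrl arrays in log2 intensity. It fell 4.05-fold (log2 fold change -2.02 ± 0.18 SE, adjusted p = 4.07e-06, limma). A second probe read 6.30, 6.56 and 6.02 on the Tuni arrays and 9.18, 8.92 and 8.90 on the Ctrl arrays, and fell 6.53-fold. Both probes had their lowest value on Tuni array 3. The third probe was not detected on any array and was not tested, with a mean log2 intensity of 4.21 in Tuni and 4.21 in Ctrl livers. Slc10a1, the sodium-dependent carrier of conjugated bile acids (NTCP), was dim throughout, although its transcript is known as abundant in liver. The sequence of its probe was not used here, so whether the probe reports this transcript was not checked. Its raw signal was 82.5, 93.5 and 89.4 in Tuni livers, below detection on all 3 arrays, and 119.6, 109.5 and 120.1 in Ctrl livers, detected on all 3. It was at least 1.82-fold lower in Tuni livers, with mean log2 intensities of 4.23 ± 0.13 in Tuni and 5.41 ± 0.22 in Ctrl livers (SD, n = 3 arrays each, adjusted p = 2.14e-05, limma). Its fitted log2 fold change of -1.18 was -0.35 without background correction and -2.20 in the second deposited table, so the size is poorly known, and the fall is that of this probe.

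Replicate spread differed between the genes. Within the Tuni group, Cyp7a1 lay 1.73 above the group mean on array 2 and 1.82 below it on array 3, in log2 units. On Tuni array 3 Abcg5 lay 0.44 below its mean and the brightest Slco1b2 probe 0.43 below. Cyp7b1 lay 0.53 below its mean on Tuni array 1, where Abcg5 lay 0.30 above. Among Ctrl arrays Cyp7a1 lay 0.64 above its mean on array 1 and 0.71 below it on array 3, where every other gene lay within 0.23 of its own mean.

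**Figure D3:**
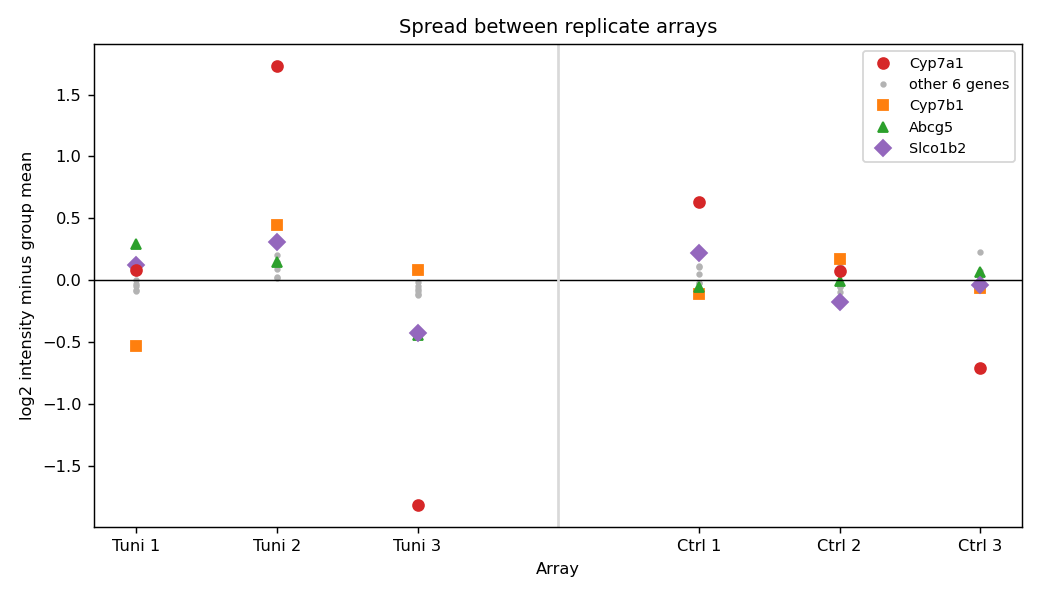
log2 intensity minus the group mean for the brightest probe of each gene, on the 3 Tuni arrays (left) and the 3 Ctrl arrays (right). Cyp7a1 (red circles) reaches 1.73 on Tuni array 2 and -1.82 on Tuni array 3, while the genes without a colour of their own stay within 0.23 of 0.

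Over the 6 arrays, the named genes with the profile nearest to Cyp7a1 were Thrsp, Gm4952, Acacb, Aldh8a1 and Sucnr1. Likeness was the root mean square difference of log2 values, each centred on its mean over the arrays, and it was 0.77 for Thrsp, a gene of fat synthesis, and 0.91 for Sucnr1. Thrsp read 8.89, 9.13 and 7.80 on the Tuni arrays and 12.70, 12.57 and 12.07 on the Ctrl arrays, which is the same order of arrays within each group as in Cyp7a1. Abcg5 was the 10th and Abcg8 the 14th nearest of 9331 genes to Cyp7a1. For Abcg5 the nearest were BC048644, Ces1f, Aldh8a1, Bdh1 and Gm10319, with differences of 0.14 to 0.26. Abcg8 was the 8th nearest to Abcg5, but Cyp7a1 only the 142nd, with a difference of 0.96. For Abcb11 they were Inmt, Aldh4a1, F13b, Akr1c12 and Tmprss6, with differences of 0.04 to 0.07, and Slco1b2 was the nearest of the other 9 genes, as the 231st. The measure takes in both the size of the fall and the deviations of single arrays. Thrsp had a log2 fold change of -3.84, against -4.57 for Cyp7a1, whereas Abcg5, at -4.43, was closer in size but ranked lower. The array order that Thrsp shares with Cyp7a1 is thus part of how it was picked and not a separate result. All genes share the same 6 arrays.

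Other enzymes of bile acid synthesis mostly fell. Of 19 in the list, 11 were tested, of which 8 fell, 1 rose and 2 did not pass the threshold. Their median log2 fold change was -0.61. Among all named genes tested, 33.1% fell, 31.2% rose and 64.3% were called. Hsd3b7, the dehydrogenase that follows Cyp7a1, fell 5.93-fold (log2 fold change -2.57 ± 0.16 SE, adjusted p = 2.23e-07, limma), and its second probe also fell, at -3.02. Abcd3, which carries intermediates into peroxisomes, fell 2.59-fold, and Cyp2c70, which makes muricholic acids in mice, fell 2.58-fold. Baat and Slc27a5, which act in the conjugation of bile acids with taurine or glycine, fell 1.66-fold and 1.53-fold. Scp2, Acox2 and Slc27a2 fell 1.91-fold, 1.31-fold and 1.52-fold. Cyp39a1, which hydroxylates an oxysterol, rose 1.87-fold, with dim mean log2 intensities of 5.65 in Tuni and 4.74 in Ctrl livers. Hsd17b4 and Acot8 of the peroxisome had log2 fold changes of -0.13 ± 0.12 and -0.03 ± 0.12 (SE), below the threshold. Akr1d1, Akr1c6, Cyp46a1, Ch25h and Fdx1 were not detected on any array.

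Of 25 other transporters of bile acids, bilirubin and sterols, 15 were tested, of which 10 fell, 2 rose and 3 did not pass. Among the falls, the groups overlapped for Slc22a7, and its call was lost in 9 of 15 alternative settings. The call of Npc2 was lost in 2. Their median log2 fold change was -0.59. Over all named genes tested, 33.1% fell, 31.2% rose and 64.3% were called. Atp8b1, the flippase that keeps the canalicular membrane resistant to bile salts, fell 8.30-fold (log2 fold change -3.05 ± 0.17 SE, adjusted p = 1.04e-07, limma), by 1 of its 3 probes, since the others did not pass the filter. Tmem30a, the partner subunit of such flippases, fell 2.17-fold. Slco2b1, an uptake carrier, fell 5.03-fold and Slco1a4 fell 1.99-fold. Ephx1, an epoxide hydrolase also proposed as a bile acid carrier, fell 2.22-fold. Of the efflux pumps of the multidrug resistance protein family, Abcc2 of the canaliculus fell by 0.59 on the log2 scale and Abcc3 of the sinusoidal side fell 2.59-fold. Abcc4, also sinusoidal, rose 4.43-fold (log2 fold change 2.15 ± 0.24 SE, adjusted p = 1.69e-05, limma). Slc51b, a subunit of the sinusoidal exporter of bile acids, was at least 1.62-fold lower and not detected on any Tuni array (adjusted p = 0.000456, limma). That bound depends on the background step, without which its log2 fold change was -0.29. Npc1, which moves cholesterol out of lysosomes, was the other riser at 3.23-fold by its brightest probe, but its 4 tested probes disagreed, with log2 fold changes of -1.26 to 1.69.

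**Figure D4:**
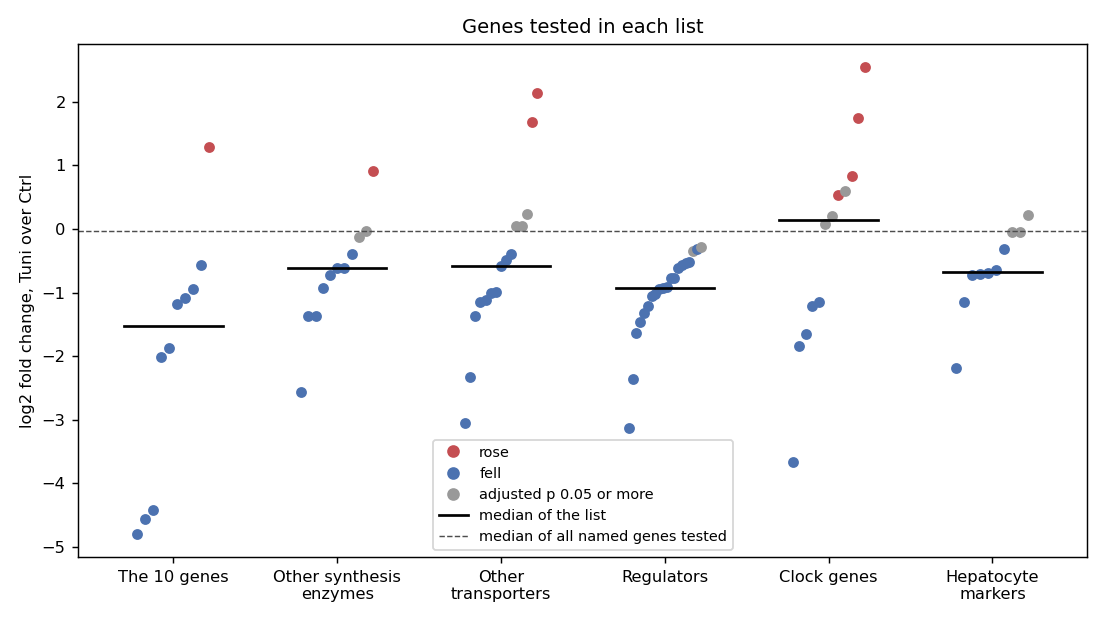
log2 fold change of Tuni over Ctrl for each tested gene, by list, as the brightest probe of a gene. Red points rose, blue points fell and grey points had an adjusted p of 0.05 or more, the black line is the median of the list and the dashed line that of all named genes tested, at -0.02. Medians are -1.52 for the 10 genes, -0.61 for other synthesis enzymes, -0.59 for other transporters, -0.92 for regulators, 0.14 for clock genes and -0.68 for hepatocyte markers.

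Of 25 regulators of these pathways, 20 were tested, of which 18 fell, 0 rose and 2, Foxa1 and Cebpb, did not pass (log2 fold changes -0.34 ± 0.22 and -0.28 ± 0.13, SE). The median was -0.92, and over all named genes tested 33.1% fell, 31.2% rose and 64.3% were called. Nr1i3, the nuclear receptor CAR, fell 8.73-fold by its brightest probe (log2 fold changes of its other tested probes -2.49 and -2.53), Cebpa fell 5.14-fold and Foxa2 fell 3.13-fold, the last detected on 2 of 3 Tuni arrays. Nr1h4, the bile acid receptor FXR, fell 1.45-fold (adjusted p = 0.00773, limma), and Nr1h3, the oxysterol receptor LXR alpha known to activate Abcg5 and Abcg8, fell 1.71-fold. Nr5a2, the receptor LRH-1 known to act on the Cyp7a1 and Cyp8b1 promoters, fell 1.43-fold by its brighter probe, while its other probe, at -0.18, was not called. Hnf4a had a log2 fold change of -0.31 ± 0.11 SE (adjusted p = 0.0341, limma), and this call was lost in 7 of 15 alternative settings, at an adjusted p of up to 0.119 without Ctrl replicate 3. Klb, the co-receptor through which the gut hormone FGF15 restrains Cyp7a1 in mice, fell 1.54-fold. Nr0b2, which encodes the repressor SHP, a known FXR target, and Fgfr4 were not detected on any array.

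Cyp7a1 is known to follow the daily clock, in part through DBP, and clock genes were split. Of 17, 12 were tested, of which 5 fell, 4 rose and 3 did not pass, with a median of 0.14. Over all named genes tested, 33.1% fell, 31.2% rose and 64.3% were called. Dbp fell 12.8-fold (log2 fold change -3.67 ± 0.23 SE, adjusted p = 2.96e-07, limma). Nr1d1, which encodes REV-ERB alpha, was at least 2.99-fold lower and not detected on any Tuni array (adjusted p = 7.87e-07, limma). That bound depends on the background step, without which its log2 fold change was -0.59. Per1 rose 5.84-fold and Arntl rose 3.37-fold. The part of these genes in the change of Cyp7a1 was not tested.

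Counts for markers of liver cell types stand beside all named genes tested, of which 33.1% fell, 31.2% rose and 64.3% were called. Of the 10 hepatocyte markers tested, 7 fell and 0 rose, the median change was -0.68 in log2, and their summed normalized intensity was 101578 to 105289 in Tuni and 140227 to 147143 in Ctrl livers. Fgb and Tat of that list were not detected on any array. Of 12 cholangiocyte markers 3 were tested, 1 fell, and their sum was 401 to 470 in Tuni and 602 to 652 in Ctrl livers. Krt19, Epcam, Cftr, Slc10a2 and Cldn4, which mark the bile duct lining, were not detected on any array. Of 12 macrophage markers 10 were tested and 9 fell, with sums of 723 to 2116 in Tuni and 3085 to 4460 in Ctrl livers. Cd5l of that list was not detected on any array. Of 9 endothelial markers tested 5 fell, with sums of 3243 to 3508 in Tuni and 3815 to 4482 in Ctrl livers. Of 7 stellate cell and fibroblast markers 3 fell, with sums of 3418 to 3634 in Tuni and 4016 to 4198 in Ctrl livers. Of 3 erythroid markers 2 fell, with sums of 6452 to 10212 in Tuni and 10446 to 14180 in Ctrl livers. Of the genes listed for enterocytes only Apoa4 was tested, and it fell. Fabp2, Vil1, Npc1l1 and Lct of that list were not detected on any array, so the fall of Apoa4 cannot be tied to enterocytes. Of 4 neutrophil markers 1, Retnlg, rose, with sums of 180 to 281 in Tuni and 122 to 226 in Ctrl livers, and this call was lost in 9 of the 15 alternatives. The part of cell composition in the changes of the 10 genes was not tested.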

How the data were processed

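The deposited table of mean bead intensity holds a signal and a detection p-value per probe and array, per the file headers. From the values, this intensity was neither background-subtracted nor normalized between arrays. The 6 detection p-value columns share 1 name in the deposited table, and each was taken from the right of its signal column. A second deposited table of intensity, background-subtracted and quantile-normalized as its values show (99.97% of ranked values within 0.1, lowest value -12.1), served only as an alternative. No source used here names the scanner or its software.

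In limma 3.58.1 (R 4.3.3), normexp background correction used the detection p-values, with an offset of 16, before quantile normalization and log2. The offset shrinks fold changes of dim genes, but their sizes also depend on the background correction, so they are not lower limits. Probes detected (p under 0.05) on 3 or more of the 6 arrays were fitted together (lmFit, eBayes), Tuni against Ctrl, with Benjamini-Hochberg adjustment over 16559 probes and a two-sided threshold of 0.05. A gene stands for its brightest kept probe. Errors are standard errors of the fit unless named SD. Moderation draws them towards the spread of all probes, so those of widely spread probes are narrower than their own arrays give. A gene undetected on a whole group is given as "at least N-fold", against the higher of its own value and the lowest detected value per array. Such a bound holds only for the background correction used. The number of arrays limits the precision. The fit was tested on simulated data.

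Gene names came from the platform annotation, checked by Entrez ID against a GRCm38.p6 table (34885 probes with 1 symbol, 18 with several, 10378 unnamed here, 0 updated). The members and lists were chosen with earlier results of these data known. Named from each list were the 3 largest called changes, with Ddit3 and Atf4 for ER stress, and the 5 nearest profiles of Cyp7a1, Abcg5 and Abcb11. Other list genes were named after their values were seen. Members of gene families such as Cyp and Slco can share probe sequence, so single values are uncertain. Alternatives were 15 changes of background, offset, normalization, table, filter, eBayes, replicate block, probe choice and arrays.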

Additional observations from a re-analysis of the deposited data

How the results depend on the processing

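All 10 genes were called in the same direction, 9 lower and 1 higher, under each of the 15 alternatives, among them leaving out each array in turn (10 of 10 called each time, the lowest and the highest count). The lists of pathway genes and the count of named genes stayed within 1.5 times of the reported counts under the same alternatives. Of the 48 other genes examined, all picked from list genes called in the main fit, 45 kept their call in all 15. The exceptions were Hnf4a, Npc2 and Slc22a7. The remaining called genes of the lists were not examined singly. The ER stress count of 10 became 9 with one median per array in place of quantile normalization, without Tuni replicate 1 and without Ctrl replicate 3. The largest adjusted p of Cyp7a1 was 0.0198, with eBayes with trend and robust, and that of Cyp7b1 was 0.0212, without a detection filter. Sizes of dim genes depend on the background step: without it the log2 fold change was -0.35 for Slc10a1, -2.69 for Abcg8, -1.78 for Atp8b1, -0.54 for Foxa2 and 1.10 for Abcc4. It was then -0.59 for Nr1d1 and -0.29 for Slc51b. For Slc10a1, Nr1d1 and Slc51b these changes are smaller in size than the bounds given for them above. The neutrophil count of 1 became 0 in 9 alternatives, and the erythroid count of 2 became 1 with detection p under 0.01. The labels do not say what the replicate numbers of the titles stand for. Deviations of same-numbered Tuni and Ctrl arrays correlated across probes at 0.127, 0.053 and 0.019, of which only the first exceeds 0.1. Deviations of arrays with different numbers correlated at -0.093 to 0.065. So few arrays cannot show whether same-numbered arrays were paired. With the replicate number as a block, 10 of the 10 genes were called, with 9, 11, 17, 10 and 10 genes called in the synthesis, transporter, regulator, clock and ER stress lists and 6010 named genes in all. Signal near background limits what can be said of Slc10a1 and of Abcg8 in Tuni livers.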
